A study of Mus musculus with 28 samples.

Results

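The comparison sets the sciatic nerve of the adult mouse against that of the newborn. It uses the 8 libraries labelled P60 (postnatal day 60, 4 libraries) and P1 (postnatal day 1, 4 libraries) out of 28 in the series, which follows the nerve from the embryo to adulthood over 7 stages by poly(A)-selected bulk RNA sequencing. All animals were wild-type C57BL/6J mice with no treatment, each postnatal library came from a different mouse, and the study used both sexes at every stage. Epineurium and perineurium had been pulled off by hand and the animals were not perfused, so the tissue was mainly endoneurium with its blood vessels. The members of the comparison are these libraries and every gene in the count table, and no measured value was used to choose them.

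Myelinating Schwann cells wrap one stretch of one axon each in a compact, lipid-rich membrane, while non-myelinating (Remak) Schwann cells hold several thin axons in separate furrows. Both arise after birth from immature Schwann cells that still divide. Endoneurial fibroblasts lay down collagen around these units, and endothelial cells, pericytes and the surrounding perineurium form the blood-nerve barrier. Setting P60 against P1 asks which transcripts separate the finished nerve from one in which axons are still being sorted and the first sheaths are forming.

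The P1 libraries held 23114114 to 30953982 counts and the P60 libraries 14499650 to 17167414. Levels are given as CPM, counts per 1000000 of a library's total after scaling the totals with the trimmed mean of M values, and as mean ± SD of 4 libraries where a mean is given. Log2 fold changes of P60 over P1 are given ± an approximate SE. It is the size of the change divided by the square root of the F statistic of the test below. The 95% intervals of log2 fold changes rest on it. Some libraries stood apart within their stage. P1 replicate 1 had a slope of -0.427 on the log2 scale per 10 points of gene GC content, against -0.116 to 0.198 in the other 7 libraries. P1 replicate 3 had the highest summed level of epineurial markers of its stage (23.03 CPM against 6.87 to 11.0), and P60 replicate 2 the lowest of perineurial markers (1034 CPM against 1378 to 1502). Adipocyte markers summed to 818 and 1090 CPM in P60 replicates 3 and 4 but to 450 and 373 CPM in replicates 1 and 2, and to 12.4 to 19.1 CPM at P1. Replicates 3 and 4 of both stages carried the transcript Xist, which marks female cells (1078 to 1381 CPM, against 0.657 to 1.25 in replicates 1 and 2), so among the P60 libraries the fat signal and sex cannot be told apart.

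Of 17700 genes tested, 6292 (35.5%) were called, that is, they differed between P60 and P1 at an adjusted p under 0.05 and a fold change of at least 2 in edgeR's quasi-likelihood test. Of these, 3601 (20.3% of genes tested) were higher at P60 and 2691 (15.2%) were lower. The 4 P60 libraries did not overlap the 4 P1 libraries for 60.7% of all genes tested, for 93.5% of those called higher and for 93.6% of those called lower. Over all genes tested the log2 fold change had a median of -0.02, against 2.03 for genes called higher and -1.80 for genes called lower. Changes of at least 4-fold were called for 1834 genes that rose and 1175 that fell, and changes of at least 64-fold for 190 and 154. With libraries scaled by total count alone the median over all genes moved to -0.22, and 47.5% of the calls were higher at P60 rather than 57.2%.

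Counts were more concentrated in few genes in the adult nerve. The 10 most abundant genes of a library held 7.64, 9.29, 8.56 and 10.04% of its counts at P1 and 15.3, 17.1, 15.0 and 15.4% at P60. The stages did not overlap, and the difference of 6.81 percentage points had an exact two-sided permutation p of 0.0286, the smallest that 4 against 4 libraries allow (0.0571 after Benjamini-Hochberg adjustment over 4 such measures, which misses 0.05). Per kilobase of transcript, Pmp22 rose from 3265 ± 627 to 15291 ± 1596 CPM per kb, Mbp from 915 to 3342 ± 446 and Apod from 54.2 to 2715 ± 350. Mitochondrially encoded transcripts held 2.99 ± 0.358% of counts at P1 and 2.75 ± 0.0541% at P60 (exact permutation p = 0.4, adjusted 0.533). Thinned to a common depth of 14499650 counts, libraries showed 19268 ± 200 genes at P1 and 19311 ± 186 at P60 (exact permutation p = 0.743, also 0.743 adjusted).

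**Figure D1:**
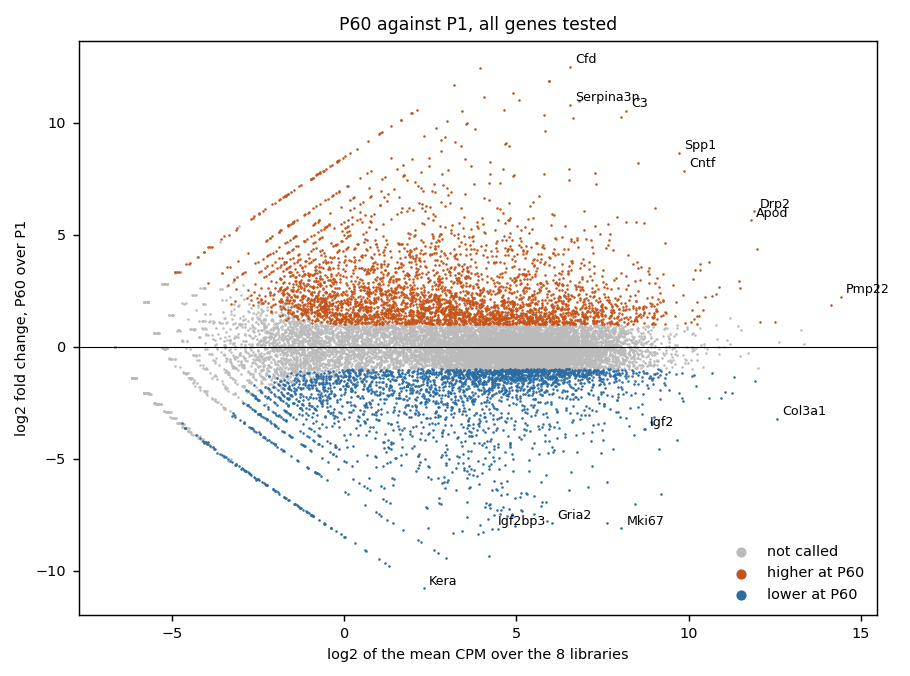
Log2 fold change of P60 over P1 (vertical axis) against the log2 of the mean CPM over the 8 libraries (horizontal axis), 1 point for each gene tested and reported; orange points were called higher at P60, blue points lower, grey points not called. The cloud is centred near 0 (median -0.02), and named genes mark its upper edge (Cfd, C3, Spp1, Cntf, Drp2) and its lower edge (Kera, Mki67, Gria2, Col3a1).

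Markers of several cell types other than the Schwann cell rose relative to all counts. The calls are to be read beside the 20.3% of all genes called higher and the 15.2% called lower. Markers that all Schwann cells share summed to 3900 to 4475 CPM at P1 and 4190 to 4717 at P60, but 4 of the 6 were called, S100b (114 to 971 CPM) and Cdh19 (201 to 442, not called with library size alone) higher and Erbb3 (919 to 350.5) and Egfl8 (678 to 210.0) lower. Markers of myelinating Schwann cells went from sums of 13630 to 25344 at P1 to 66596 to 85242 at P60. Endothelial markers summed to 261 to 288 CPM at P1 and 999 to 1070 at P60, with 10 of 16 tested called higher and 2 lower, and pericyte and smooth muscle markers to 280 to 351 and 1080 to 1169, with 6 of 10 higher. Perineurial markers (all 5 called higher) and epineurial markers (6 of 7) rose as well, from 170 to 251 and 6.87 to 23.03 CPM at P1 to 1034 to 1502 and 131 to 172 at P60. All 10 adipocyte markers were called higher. These are bulk libraries, in which fewer cells of a type and less RNA per cell cannot be told apart. How much epineurium and perineurium was left after stripping is not given for either stage. A difference in stripping and a change with age therefore cannot be told apart for the perineurial, epineurial and fat markers.

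The 4 largest rises of the endothelial list were in genes of the blood-nerve or blood-brain barrier. Slco1a4, an organic anion transporter of barrier endothelium, was at 0.947, 0.583, 0.364 and 0.217 CPM in the P1 libraries and at 104, 108, 125 and 105.3 CPM in the P60 libraries, a log2 fold change of 7.72 ± 0.39 (adjusted p = 1.3e-15). The efflux pump gene Abcb1a went from 3.94 ± 0.386 to 166 ± 16.04 CPM, the tight junction gene Cldn5 from 5.63 ± 1.12 to 83.1 ± 18.9, and Mfsd2a, which carries lipid across barrier endothelium, from 16.8 ± 1.43 to 163 ± 12.01. For all of these the stages did not overlap. Plvap, of the same list and not among these 4, was also called higher, with log2 fold changes of 2.27 to 2.62 over the alternatives. Apln, which tip cells of sprouting vessels secrete, fell instead, from 21.9 ± 3.19 to 1.75 ± 0.672 CPM, as did Esm1, another tip cell gene, from 4.46 ± 0.791 to 1.81 ± 0.673. The smooth muscle genes Tagln and Acta2 rose from 8.92 to 396 and from 5.24 to 93.6 CPM. Of the genes that mark pericytes, Rgs5 (66.4 to 201.1 CPM), Notch3 (18.9 to 48.6) and Pdgfrb (97.6 to 203.8, not called without P1 replicate 1) also rose, and Cspg4 (85 and 82.9) and Kcnj8 (7.63 and 8.96) were not called.

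Macrophage markers summed to 149 to 177 CPM at P1 and 257 to 344 at P60, with 4 of 14 called higher and 1 lower, not far from the 20.3% and 15.2% of all genes. Cd163, the haemoglobin scavenger receptor, rose from 0.632 ± 0.644 to 54.5 ± 6.98 CPM and Folr2 from 0.244 to 6.16, while the fractalkine receptor Cx3cr1 fell from 25.4 ± 3.56 to 7.34 ± 2.55. The general markers Ptprc (5.59 and 7.86 CPM) and Adgre1 (10.9 and 16.1) were not called. Mast cell markers (6 of 7 tested higher, 2 without P60 replicates 3 and 4) summed to 18.1 to 30.7 CPM and 35.3 to 51.4. Lymphocyte markers stayed at 0.950 CPM or less in sum in every library, with all 8 under 1 CPM. Erythroid markers, which unperfused blood would bring in, were lower at P60 (23.3 to 49.3 CPM in sum against 58.5 to 176, 4 of 11 called).

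Markers of neighbouring tissues other than fat were measured as well. Skeletal muscle markers summed to 11.2 to 16.2 CPM at P1 and 17.04 to 22.0 at P60, with 3 of 13 tested called higher, near the 20.3% of all genes, and 11 of 16 were under 1 CPM in all 8 libraries. Markers of cartilage and tendon summed to 57.9 to 91.9 CPM at P1 and 52.7 to 68.4 at P60, and of the 9 tested 4 fell, among them Col9a1 (24.9 to 1.55 CPM), and 1 rose, Cnmd (0.896 to 32.2 CPM). Epidermal and brown fat markers had no member called. Sensory neuron cell bodies, which lie outside the nerve, gave sums of 12.4 to 15.5 and 10.9 to 13.6 CPM, with 4 of 11 higher and 1 lower (2 lower without P60 replicate 1, and 20.3% and 15.2% over all genes), and markers of sympathetic and motor neurons had 1 call, a fall of Slc5a7 from 1.41 to 0.184 CPM. Of the markers of lymphatic vessels, Lyve1, Pdpn and Flt4 rose and Prox1 fell (1.46 to 0.135 CPM). With library size alone Lyve1 was the one rise called, and Flt4 was not called without P1 replicate 1 (0.92) or P60 replicate 4 (0.97), nor Pdpn without P1 replicate 2 (0.96) or P60 replicate 1 (0.84). Of the 5 markers of endoneurial fibroblast-like cells, Col2a1 fell and the other 4 were not called, and the shared fibroblast markers Pdgfra (123 and 181 CPM) and Cd34 (100.4 and 114) were not called.

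**Figure D2:**
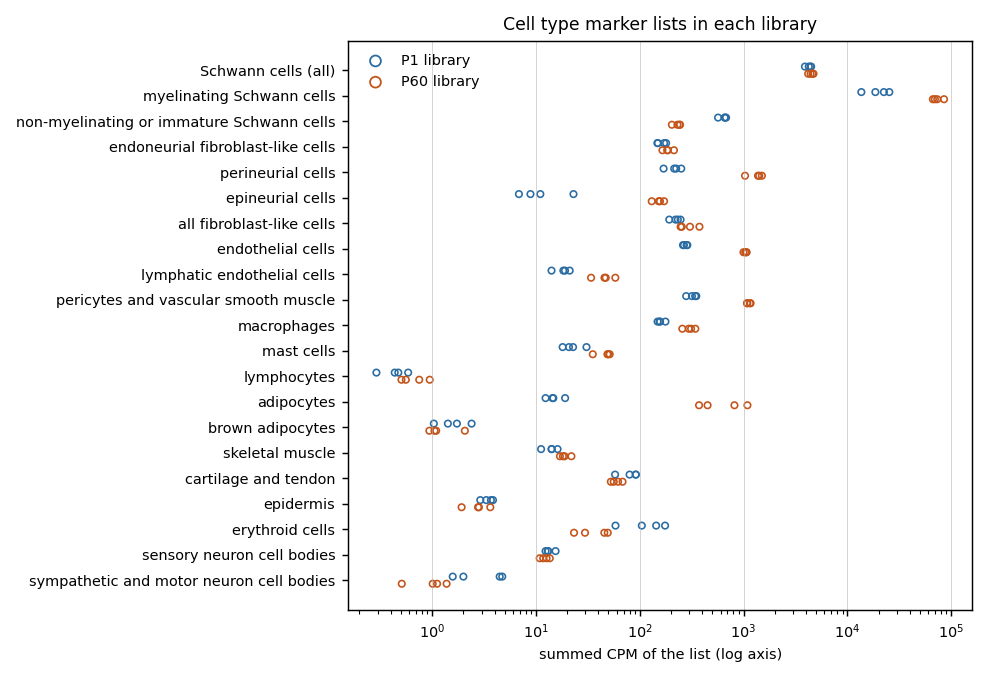
Summed CPM (log axis) of each cell type marker list in each of the 4 P1 libraries (blue) and 4 P60 libraries (orange). The stages are far apart for adipocyte (12.4 to 19.1 against 373 to 1090 CPM), epineurial, perineurial, endothelial and myelinating Schwann cell lists, and close together for markers of all Schwann cells (3900 to 4475 against 4190 to 4717 CPM).

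The largest rises among genes with reads at both stages were led by acute-phase, complement and fat genes. Car3, a carbonic anhydrase abundant in adipocytes, was at 0.0729, 0.0833, 0.146 and 0.124 CPM at P1 and 112, 107, 291 and 389 CPM at P60 (10.95 ± 1.55 on the log2 scale), and its P60 values followed the adipocyte markers. Serpina3n (chr12:104406729-104414329), a secreted protease inhibitor, was at 0, 0.167, 0.0729 and 0.155 CPM at P1 and at 214, 180.5, 198 and 157 CPM at P60 (10.81 ± 0.46, adjusted p = 6.0e-17). It differed little among the 4 adult libraries, unlike Car3. Spp1 (chr5:104435118-104441050), which encodes the secreted phosphoprotein osteopontin, was at 3.97, 3.00, 5.5 and 4.06 CPM at P1 and 1706, 1746, 1602 and 1633 CPM at P60 (8.65 ± 0.23, adjusted p = 6.1e-21). Serpind1 (heparin cofactor) reached 199.6 ± 28.4 CPM, Myoc (myocilin) 113 ± 17.5 and the growth factor gene Fgf4 50.6 ± 3.57, each from under 1 CPM in every P1 library. The other members of the 12 were C3, C4b, Thrsp, Ppl, Adora1 and Adipoq, with log2 fold changes down to 8.26.

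Some genes had at most 3 counts in each library of one stage. Such genes numbered 322 among those called higher at P60 and 385 among those called lower. P60 libraries held fewer counts than P1 libraries, so this limit is easier to meet at P60 and these numbers are not on equal terms. The most abundant at P60 were Cfd, an adipocyte protease of the complement system (188 ± 94.9 CPM), Etnppl (phosphoethanolamine breakdown, 124 ± 22.2), Plin4 (a lipid droplet coat protein, 122 ± 50.2), Cyp2e1 (67.1 ± 45.2), Plk5 (59.8 ± 15.2) and Them5 (50.1 ± 8.79). From 3 counts over the P1 libraries, Cfd was 6976-fold higher with a 95% counting interval of 2387 to 33828, and Etnppl 4574-fold (1565 to 22181). Among genes that P60 libraries nearly lacked, Igf2bp3 was highest at P1 (39.4 ± 5.2 CPM against 8 counts over the 4 P60 libraries, a ratio of 293 with an interval of 149 to 678), followed by Lrrtm1 (36.6 ± 9.54, 3 counts), a synaptic adhesion gene, and by 4 genes of dividing cells, Cdca2, Stil, Kif18b and Ticrr.

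Among genes with reads at both stages, genes of dividing cells made up most of the largest falls, with a few genes of another kind. Gria2 (chr3:80681450-80802835), an AMPA-type glutamate receptor subunit, was at 151, 136, 121 and 116 CPM at P1 and 0.585, 0.653, 0.497 and 0.502 CPM at P60 (-7.87 ± 0.43, adjusted p = 1.1e-14). Dab1, the adaptor of the reelin receptors, was at 91.3, 89.03, 90.6 and 90.8 and 0.438, 0.218, 0.249 and 1.07 CPM (-7.48 ± 0.32, adjusted p = 4.7e-17). No P60 library came near a P1 library for either gene. The other 10 of the 12 largest falls, Neil3, Bub1, Mki67, Pclaf, Top2a, Cenpf, Dtl, Ckap2, Ccnb1 and Hmmr, act in DNA replication, DNA repair or mitosis.

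**Figure D3:**
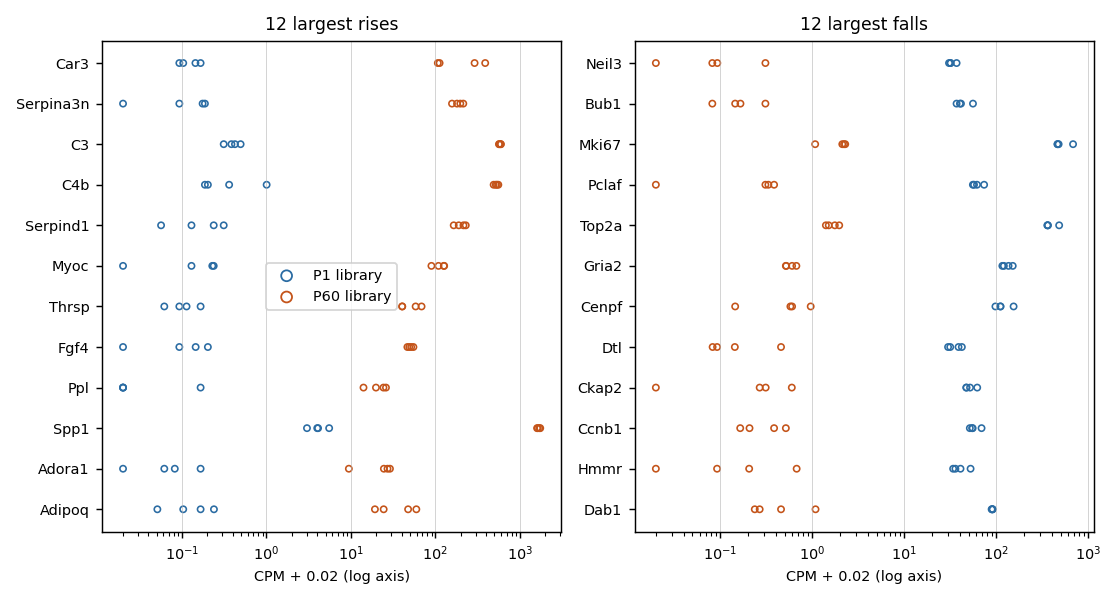
CPM + 0.02 (log axis) of the 12 largest rises (left) and the 12 largest falls (right) in each P1 library (blue) and each P60 library (orange). No gene overlaps between the stages, as the choice of these genes required, and the adult spread is widest for the fat genes Car3 (107 to 389 CPM) and Adipoq (19.2 to 59.5 CPM).

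Transcripts of cell division were lower in the adult nerve in nearly every case. Of 46 genes of the cell cycle and mitosis, 45 fell (against 15.2% of all genes) with a median log2 fold change of -4.65, and their joint share of counts went from 0.478% to 0.0348%. Mki67 (chr7:135689784-135716361), the standard marker of cycling cells, was at 683, 462, 476 and 465 CPM at P1 and at 2.27, 2.1, 1.06 and 2.2 CPM at P60 (-8.10 ± 0.31, adjusted p = 6.1e-18). Top2a, the topoisomerase that untangles chromosomes, was at 482, 363, 364 and 359 and 1.39, 1.74, 1.49 and 1.95 CPM (-7.89 ± 0.24, adjusted p = 4.7e-20), and the spindle checkpoint kinase gene Bub1 at 55.8, 40.2, 41.3 and 37.03 and 0.146, 0.29, 0.0621 and 0.126 CPM (-8.12 ± 0.45, adjusted p = 1.1e-14). In P1 replicate 1 these genes were highest, and without that library the falls were still called.

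The smallest falls called in the list were in 2 genes of DNA replication. The clamp gene Pcna went from 123 ± 5.51 to 53.3 ± 3.11 CPM (-1.21 ± 0.09) and the helicase subunit Mcm7 from 80.96 ± 5.89 to 23.9 ± 2.22 (-1.76 ± 0.18). Ccnd1, the cyclin that links growth signals to the cycle, fell from 899 ± 94.1 to 81.7 ± 8.92 CPM. Anln (anillin), which also sits in the myelin sheath, was the member not called (93.3 and 48.9 CPM, log2 fold change -0.93). Inhibitors of the cycle were mixed, with 3 of 10 higher and 3 lower (20.3% and 15.2% over all genes). Cdkn1a (p21) rose from 185 ± 6.21 to 527 ± 34.03 CPM and the pocket protein gene Rbl2 from 44.5 to 97.3, whereas Cdkn1c (p57) fell from 348 ± 38.5 to 19.5 ± 4.56 and Rbl1 from 47.6 to 4.62.

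The promoters of the 3 members of the list named above with their values in every library are shown because they carry recurring short motifs. Of the 45 genes that fell, 37 had a promoter in RefSeq (build GRCm38.p6, 250 bases before to 50 after the gene start), searched on both strands for CCAAT, the binding site of the factor NF-Y, and for TTTGAA or TTCGAA, known as the cell cycle homology region. CCAAT was in 75.7% of these promoters against 38.3% of the promoters of 12514 tested genes, TTTGAA or TTCGAA in 54.1% against 13.8%, and both in 51.4% against 5.79%. A match is a run of letters and not a measured binding site. The sequences read 5' to 3' in the gene's own direction, and capitals mark the matches, with ATTGG and TTCAAA the same motifs met on the other strand, for Bub1 at chr2:127831810-127832109, Mki67 at chr7:135716330-135716629 and Top2a at chr11:99024140-99024439, all on the minus strand.
Bub1: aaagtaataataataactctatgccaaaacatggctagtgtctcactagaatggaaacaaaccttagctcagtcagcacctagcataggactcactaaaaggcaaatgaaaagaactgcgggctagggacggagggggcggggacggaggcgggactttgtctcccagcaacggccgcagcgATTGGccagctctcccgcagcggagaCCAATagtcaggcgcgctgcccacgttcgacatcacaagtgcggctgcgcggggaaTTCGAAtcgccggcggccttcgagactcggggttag
Mki67: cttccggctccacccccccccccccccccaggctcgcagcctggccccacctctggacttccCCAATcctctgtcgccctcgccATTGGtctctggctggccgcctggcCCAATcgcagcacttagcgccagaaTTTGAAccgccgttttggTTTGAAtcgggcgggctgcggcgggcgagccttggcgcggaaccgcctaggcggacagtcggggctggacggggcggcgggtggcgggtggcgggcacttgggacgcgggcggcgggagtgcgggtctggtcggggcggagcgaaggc
Top2a: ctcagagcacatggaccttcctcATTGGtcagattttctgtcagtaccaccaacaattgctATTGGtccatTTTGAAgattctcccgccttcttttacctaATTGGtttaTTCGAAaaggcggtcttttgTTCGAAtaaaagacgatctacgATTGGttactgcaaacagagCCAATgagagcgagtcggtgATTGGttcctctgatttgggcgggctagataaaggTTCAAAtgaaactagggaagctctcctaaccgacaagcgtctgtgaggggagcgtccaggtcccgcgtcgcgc

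Genes of immature and promyelinating Schwann cells were mostly lower. Of 25 members, 16 fell and 2 rose (1 with library size alone), beside 15.2% and 20.3% of all genes. The median log2 fold change was -1.21 (-0.02 over all genes). Ednrb, the endothelin receptor of early Schwann cells, was at 1262, 1211, 1140 and 1019 CPM at P1 and 11.98, 15.4, 8.76 and 13.2 CPM at P60 (-6.55 ± 0.21, adjusted p = 1.2e-19). The differentiation inhibitor Id2 fell from 285 ± 13.1 to 7.12 ± 1.54 CPM, the cadherin gene Cdh6 from 190 ± 19.5 to 3.89 ± 0.277, and Pou3f1, the promyelinating factor also called Oct6, from 139 ± 17.8 to 11.4 ± 3.53. Ngfr, the low-affinity neurotrophin receptor, was at 186, 230.4, 246 and 241 CPM at P1 and 30.9, 47.1, 33.2 and 33.5 CPM at P60, and Sox2 went from 17.4 ± 0.909 to 7.66 ± 0.715. Gfap, which marks Remak cells, rose from 0.122 ± 0.0538 to 9.5 ± 2.04 CPM and the cadherin gene Cdh2 from 51.9 ± 5.59 to 112 ± 8.53. Jun (21.7 and 18.7 CPM), Dhh (297 and 269) and L1cam (154 and 104) were not called.

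Sheath proteins rose unequally. Of 24 members, 12 were called higher, 2 lower and 10 not, beside 20.3% higher and 15.2% lower over all genes. Their median log2 fold change was 0.97, and together they took 3.49% of counts at P1 and 9.10% at P60. Drp2 (chrX:134404551-134456573), a dystrophin-related protein that anchors the sheath to its outer basal lamina, was at 108, 127, 83.8 and 138 CPM at P1 and at 7395, 7630, 8136 and 7132 CPM at P60 (6.05 ± 0.16, adjusted p = 6.1e-21). Pmp22 (chr11:63128982-63159547), a tetraspan protein of compact myelin, was at 6339, 8753, 6498 and 9157 and 34721, 41535, 33179.6 and 34541 CPM (2.23 ± 0.14, adjusted p = 1.0e-13). Mbp, which holds the cytoplasmic faces of the membrane together, rose from 7752 ± 2579 to 28304 ± 3780 CPM (1.87 ± 0.20), Prx (periaxin, a partner of Drp2) from 3696 ± 996 to 8018 ± 1031 (1.12 ± 0.21, 0.97 and not called without P1 replicate 1), and Nfasc, of the node and paranode, from 85.8 ± 19.2 to 681 ± 49.5 (2.99 ± 0.14).

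Several classical sheath genes were not called. Cnp was at 2077 ± 371 CPM at P1 and 2091 ± 220.4 at P60, with a 95% interval of the log2 fold change from -0.39 to 0.41. Cldn19 was at 1415 ± 185 and 1395 ± 160 CPM (interval -0.27 to 0.23). Cnp overlaps Dnajc7 on the other strand, and whether counting used strand is not stated. Mag, which faces the axon, was at 422, 694, 658 and 778 CPM at P1 and 308, 442, 379 and 372 at P60 (-0.77 ± 0.24), below the 2-fold minimum. The connexin gene Gjc3 fell from 1537 ± 129.6 to 290.5 ± 15.6 CPM (-2.40 ± 0.16) and the scaffold gene Mpp6 from 318 ± 41.7 to 54.1 ± 6.99 (-2.56 ± 0.21), whereas the other connexin gene of the list, Gjb1, rose from 29.9 ± 5.29 to 152 ± 16.4 (2.34 ± 0.18).

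Of the transcription factors of myelination, 5 of 17 were called higher and 3 lower (2 and 3 higher with scaling by library size alone and with no filter on low counts, respectively), where 20.3% of all genes were higher and 15.2% lower. The share of falls was close to that over all genes. Sox10, which all Schwann cells need, was at 354 ± 98.1 CPM at P1 and 449 ± 78.6 at P60, and Egr2 (Krox20), the master factor of the sheath, at 270 ± 50.6 and 229 ± 40.9. Neither was called. The thyroid and glucocorticoid target Klf9 rose from 34.9 ± 1.99 to 144 ± 9.36 CPM, the Egr2 partner Nab1 from 36.3 ± 1.88 to 136 ± 6.4, and Maf from 143 ± 8.05 to 294 ± 30.5 (0.99 on the log2 scale and not called without P60 replicate 2). Tead1, the DNA-binding partner of Yap1, fell from 969 ± 66.7 to 301 ± 8.44 CPM, and Pou3f2 from 47.8 ± 5.11 to 7.78 ± 1.24.

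Genes used to mark mature non-myelinating Schwann cells were called higher in 7 of 16 cases and lower in 6, beside 20.3% and 15.2% of all genes. Apod, a lipid carrier, was at 124, 149.8, 147 and 137 CPM at P1 and at 8314, 6397, 6843 and 6434 CPM at P60 (5.65 ± 0.17, adjusted p = 5.8e-20). Scn7a, a sodium channel of Remak cells, rose from 186 ± 37.6 to 976 ± 101 CPM and Csmd1 from 3.9 ± 0.15 to 74.95 ± 7.5, while the artemin receptor gene Gfra3 fell from 11.5 ± 2.89 to 1.76 ± 0.536 and Sostdc1 from 289.8 ± 3.87 to 108 ± 8.21. Ngfr, given above, and Ncam1 (log2 fold change -1.74 to -1.41 over the alternatives) fell too. Gfap, Ngfr, Ncam1, L1cam and Cdh2 belong both to this list and to that of immature and promyelinating Schwann cells.

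Cholesterol genes supply the main lipid of the sheath. Of 23 genes of synthesis and uptake, 5 were called higher (3 with library size alone) and none lower, a share of rises close to the 20.3% of all genes, with a median log2 fold change of 0.34. Hmgcs1, an entry step of the pathway, was at 933 ± 109.5 CPM at P1 and 1664 ± 162 at P60 and was not called, whereas Sc5d, which acts late in it, rose from 109.8 ± 20.5 to 419.7 ± 32.2. Of 22 genes of fatty acid and sphingolipid synthesis, 8 rose and none fell. They included Fa2h, which makes the hydroxylated lipids of myelin (256 ± 43.2 to 812 ± 62.96 CPM), Cers2 (262 ± 10.8 to 798 ± 67.6), Scd2 (2694 ± 211 to 5828 ± 449.8) and Ugt8a (681 ± 92.5 to 1455 ± 114), which makes galactolipids.

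Genes of fat storage and oxidation (7 of 23 higher and 2 lower, beside 20.3% and 15.2% of all genes) held several that adipocytes express. Without P1 replicate 2 or 4 or P60 replicate 4, 1 fall was left, since Acot1 (32.1 ± 2.76 to 15.9 ± 1.11 CPM) was then not called. Plin4 rose most, and Lpl, Pparg, Lipe and Pnpla2 were also called higher. Lpl was at 4.04, 5.25, 11.4 and 6.85 CPM at P1 and 84.4, 70.1, 104 and 122 at P60, and Plin4 at 99.8, 73.9, 191 and 124 CPM at P60. Plin4 was higher in P60 replicates 3 and 4 than in replicates 1 and 2, as the adipocyte markers were (818 and 1090 CPM against 450 and 373 in sum), and their part in the result was not tested. Pdk4, which turns pyruvate away from oxidation, rose from 2.22 ± 0.327 to 86.2 ± 21.98 CPM, and Cpt1a, the carnitine step of fatty acid entry into mitochondria, fell from 216 ± 23.3 to 100.5 ± 4.33.

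Of the 10 genes of fatty acid binding proteins, small carriers of lipids in the cytoplasm, 5 had enough reads to be tested and the other 5 were at 0 counts in all 8 libraries. Fabp4, the adipocyte and capillary form, was at 12.2, 10.7, 14.4 and 12.3 CPM at P1 and 69.2, 50.8, 105.2 and 136 at P60 (2.87 ± 0.53, adjusted p = 3.7e-05). Fabp5 fell from 132 ± 7.61 to 54.9 ± 5.27 CPM (-1.26 ± 0.15), Fabp7, of Schwann cell precursors, from 2.13 ± 0.553 to 0.69 ± 0.373, and Fabp3 from 0.473 ± 0.205 to 0.153 ± 0.0676, a call lost in 8 alternatives, among them those without P1 replicate 1 or 4 or P60 replicate 1, 3 or 4 (log2 fold changes -1.74 to -1.26). Pmp2, the myelin form, was at 740.4, 749.5, 553 and 674 CPM at P1 and 449, 553, 326 and 408 CPM at P60 and was not called (-0.65 ± 0.17). An unnamed gene model overlaps it. Its stage means went up from 7.52 CPM at E17 to 2383 at P24 before the lower value at P60.

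Fetal growth genes were lower in the adult. Of 14 oncofetal RNA-binding and chromatin proteins, 9 fell and none rose (median log2 fold change -2.04), beside 15.2% and 20.3% of all genes. Hmga2, an architectural chromatin protein of growing tissue, was at 69.7, 77.6, 59.2 and 66.5 CPM at P1 and 0.511, 0.943, 0.497 and 0.628 CPM at P60 (-6.72 ± 0.24, adjusted p = 1.8e-18), and Igf2bp2 went from 245 ± 11.01 to 29.4 ± 1.86 CPM. Hmgb2, which also accompanies division, went from 126 ± 18.4 to 10.4 ± 1.14. Lin28a and Lin28b, which keep let-7 from maturing, had no call and means of 0 and 0.0157 CPM at P60 and 0 and 0.026 at P1.

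Imprinted genes, expressed from one parental copy and known as regulators of body growth, fell in 18 of 22 cases and rose in 3 (1 with library size alone), with a median of -2.37. Over all genes, 15.2% were called lower and 20.3% higher. Dlk1 was at 119, 162, 231 and 217 CPM at P1 and 1.02, 2.03, 2.24 and 3.14 CPM at P60 (-6.41 ± 0.44, adjusted p = 1.1e-12). Igf2, the fetal growth factor, was at 802, 632, 957 and 738 and 38.4, 58.7, 67.2 and 78.9 CPM (-3.68 ± 0.20, adjusted p = 1.2e-14), and overlaps a second gene model on its own strand. The stages did not overlap for either gene. H19, the non-coding partner of Igf2, fell from 1085 ± 195 to 45.2 ± 7.56 CPM, Mest from 387 ± 61.98 to 5.92 ± 1.44, Peg3 from 412 ± 36.99 to 86.7 ± 6.41 and Grb10, which damps insulin-like signalling, from 569 ± 31.7 to 48.5 ± 6.49. Snrpn rose from 19.1 ± 0.989 to 51.6 ± 4.13 CPM and Gnas was at 689.9 ± 99.1 and 693 ± 28.3 and not called.

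Receptors and binding proteins of insulin-like growth factors were called higher in 4 of 16 cases and lower in 3, near the shares over all genes (20.3% and 15.2%). Igfbp6, which prefers Igf2, rose from 17.4 ± 10.7 to 371 ± 105.2 CPM, and Igfbp2 fell from 9.87 ± 3.1 to 0.312 ± 0.156. Igfbp5 was at 359 ± 121 and 594 ± 142 CPM and was not called. Among 23 polycomb and DNA methylation enzymes, 4 rose and 5 fell, also near those shares. Ezh2, the catalytic subunit of dividing cells, fell from 77.8 ± 11.3 to 11.9 ± 0.895 CPM, while Ezh1, its counterpart in resting cells, rose from 23.7 ± 1.21 to 137 ± 4.36. Cbx7 was at 2.77, 5.25, 5.17 and 5.43 CPM at P1 and 125, 121, 146 and 142 at P60 (4.84 ± 0.23). Uhrf1, which brings the maintenance methyltransferase to copied DNA, fell from 90.6 ± 12.2 to 0.884 ± 0.287 CPM and that enzyme's gene, Dnmt1, from 129 ± 5.99 to 32.1 ± 3.61.

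The matrix genes changed in kind. Of 26 genes of fibrillar collagens and their processing, 13 fell and 3 rose, beside 15.2% and 20.3% of all genes (median -0.92). Col3a1 (chr1:45311538-45349706) was at 9104, 10486, 11808 and 12030.3 CPM at P1 and 1435, 1375, 821 and 994 CPM at P60 (-3.23 ± 0.22, adjusted p = 8.5e-13). Col1a1 fell from 3962 ± 1223 to 934 ± 112 CPM and Col1a2 from 5808 ± 944 to 2037 ± 234, and the collagen chaperone gene Serpinh1 from 723 ± 175 to 276 ± 25.1. Lox, the enzyme that crosslinks collagen and elastin, was at 60.5, 41.7, 60.2 and 35.3 CPM at P1 and 1224, 1243, 1214 and 1169 at P60 (4.62 ± 0.28, adjusted p = 1.0e-13), above every P1 library in every adult library. Sparc, a collagen-binding protein, was at 7271 ± 663 and 12259 ± 1078 CPM, under the 2-fold minimum.

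Small leucine-rich proteoglycans, which coat collagen fibrils, rose in 8 of 14 cases and fell in 2 (median 1.68), beside 20.3% and 15.2% of all genes. The share of falls was thus close to that over all genes. The falls were those of Kera and Aspn, and Aspn (30.9 ± 11.7 to 14.3 ± 7.22 CPM) was not called without P1 replicate 1 or 3 or P60 replicate 2 or 3, which left 1 fall. Dcn (decorin) was at 599, 412, 520 and 492 CPM at P1 and 4137, 2587, 2871 and 3373 at P60 (2.68 ± 0.21, adjusted p = 1.9e-11), and Ogn (osteoglycin) went from 221 ± 19.9 to 2360 ± 144 CPM. Fmod rose from 1.06 ± 0.922 to 53.3 ± 23.7, and its highest P1 value, 2.44 CPM, was in replicate 3, the P1 library with the highest epineurial markers. Kera (keratocan) had 9.89 ± 1.56 CPM at P1 and 0 counts at P60, at least 196-fold lower against a floor of 3 counts over the 4 P60 libraries, and the list's median is the same with Kera at that bound.

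Elastic and provisional matrix genes included 7 of 22 that fell and 4 that rose, beside 15.2% and 20.3% of all genes, so that the share of rises was close to that over all genes. Postn (periostin) was at 1836, 1427, 1600 and 1279 CPM at P1 and 158, 30.4, 59.6 and 92.8 at P60 (-4.17 ± 0.52, adjusted p = 9.0e-08), and Fbn2, the fetal fibrillin, went from 265 ± 31.2 to 3.49 ± 0.516 CPM, whereas Fbn1 was at 386 ± 33.5 and 237 ± 45.3 and not called. Tnc (tenascin C) fell from 181 ± 19.6 to 18.9 ± 4.26 CPM and Tnxb (tenascin X) rose from 33.05 ± 14.4 to 570.4 ± 25.5. Mfap5 rose from 14.7 ± 8.84 to 694 ± 52.4 CPM. Acan, the aggregating proteoglycan of cartilage, had 1.00 ± 0.33 CPM at P1 and 0 counts at P60, at least 19.9-fold lower by the same floor.

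Basal lamina components were called higher in 10 of 26 cases and lower in 10, beside 20.3% and 15.2% of all genes. The laminin chains of the Schwann cell basal lamina fell together, Lama2 from 2570 ± 286 to 519 ± 56.8 CPM, Lama4 from 1476 ± 75.8 to 304 ± 22.4, Lamb1 from 3432 ± 244 to 852 ± 79.1 and Lamc1 from 3286 ± 292 to 664 ± 37.1. Lamc1 was at 2864, 3339, 3414 and 3527 CPM at P1 and 717, 632, 657 and 649 at P60, with no overlap (-2.31 ± 0.16, adjusted p = 1.9e-12). Lama5, a chain more typical of vessels and epithelium, rose from 7.88 ± 1.93 to 140.4 ± 11.1 CPM. Col4a3 was at 0.109, 0.0833, 0.291 and 0.062 CPM at P1 and 28.7, 5.44, 14.8 and 18.6 at P60 (6.91 ± 0.66), lowest in P60 replicate 2, the adult library with the lowest perineurial markers (1034 CPM against 1378 to 1502). The part of these cells in the matrix results was not tested. Col4a1 (2095 ± 535 and 1695 ± 127 CPM) and Col4a2 (1140 ± 294 and 1092 ± 91), the collagens of every basal lamina, were not called.

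Immune genes rose as groups. Of 19 complement components and regulators, 15 rose and none fell (20.3% of all genes were higher), with a median log2 fold change of 2.95. C3 (chr17:57203970-57228136), on which all complement pathways converge, was at 0.364, 0.291, 0.474 and 0.403 CPM at P1 and 595, 567, 596 and 571 CPM at P60 (10.54 ± 0.56, adjusted p = 5.9e-15). C4b was at 0.182, 0.167, 0.984 and 0.341 and 537, 518, 557 and 490 CPM (10.26 ± 0.37, adjusted p = 2.1e-18). Both were within a narrow range in the adult libraries, whereas Cfd (123, 106, 211 and 313 CPM) was higher in P60 replicates 3 and 4, as the adipocyte markers were. C2, a component of the classical pathway, was at 136, 41.99, 86.6 and 102 CPM at P60, lowest in replicate 2, the library with the lowest perineurial markers, from 3.72 CPM at P1. The part of perineurial cells and of fat in the complement result was not tested. The protective genes Cd55 and Serping1 rose from 4.8 ± 1.37 to 136 ± 5.44 and from 79.2 ± 14.6 to 614 ± 137 CPM. Of the C1q chain genes, which macrophages express, C1qa (14.03 to 33.2 CPM) and C1qc (11.99 to 29.5) rose and C1qb (18.7 and 35.7) was not called, nor was C3ar1 (8.49 and 9.21).

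Antigen presentation genes rose in 18 of 20 cases, with a median of 2.71 and none lower, beside 20.3% higher and 15.2% lower over all genes. B2m, the light chain of class I molecules, was at 212, 195, 174 and 186 CPM at P1 and 637, 618, 594 and 633 at P60 (1.69 ± 0.11, adjusted p = 2.5e-13). The class I gene H2-D1 rose from 27.2 ± 4.48 to 199 ± 19 CPM, and the class II genes Cd74 from 7.63 ± 1.22 to 131 ± 22.6, H2-Aa from 6.39 ± 1.12 to 98.1 ± 18.9 and H2-DMb1 from 2.29 ± 0.713 to 135 ± 27.2. Class I genes of one family share sequence, so reads may be split between them. Macrophage markers moved by less beside them (149 to 177 and 257 to 344 CPM in sum), and lymphocyte markers were near 0. The part of these cells in the result was not tested.

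Of 24 genes of the interferon response, 19 rose and none fell (median 1.91), beside 20.3% and 15.2% of all genes. Ifit3 was at 1.57, 2.12, 1.35 and 1.3 CPM at P1 and 38.9, 31.5, 63.8 and 33.6 at P60 (4.73 ± 0.28, adjusted p = 5.9e-14). Gbp2 rose from 2.82 ± 0.203 to 39.3 ± 9.16 CPM and Ifit1 from 0.933 ± 0.21 to 13.2 ± 4.72. Ifit2 lay close to the threshold (1.00 ± 0.17) and lost its call in 8 of the alternatives, among them those without P1 replicate 3 or 4 or P60 replicate 1 or 3 (0.97 to 0.99). Of the 19 genes that rose, 13 had a RefSeq promoter, and 8 of these (61.5%) held, on either strand, GAAA followed after 2 bases of any kind by GAAA, the core of the interferon-stimulated response element, against 3.02% of the promoters of all tested genes. The promoters of Ifit3 at chr19:34583279-34583578 and Ifit1 at chr19:34640639-34640938 (GRCm38.p6, both on the plus strand) are shown because each holds 2 such runs, in capitals, both met on the other strand and so read from TTTC to TTTC.
Ifit3: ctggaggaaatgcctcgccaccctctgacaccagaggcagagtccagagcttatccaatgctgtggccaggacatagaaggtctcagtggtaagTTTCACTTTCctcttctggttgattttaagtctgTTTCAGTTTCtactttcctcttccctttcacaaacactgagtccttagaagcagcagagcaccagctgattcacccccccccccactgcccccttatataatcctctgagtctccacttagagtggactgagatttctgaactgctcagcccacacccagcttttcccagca
Ifit1: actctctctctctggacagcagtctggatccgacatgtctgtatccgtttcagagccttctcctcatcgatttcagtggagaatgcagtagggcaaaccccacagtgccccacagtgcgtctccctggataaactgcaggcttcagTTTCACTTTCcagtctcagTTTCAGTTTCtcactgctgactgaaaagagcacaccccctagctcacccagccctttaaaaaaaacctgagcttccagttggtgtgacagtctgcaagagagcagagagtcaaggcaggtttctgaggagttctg

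Genes that glucocorticoids are known to induce were higher at P60 in 20 of 21 cases, with a median of 2.59, beside 20.3% of all genes. Tsc22d3 (GILZ) was at 15.01, 19.4, 17.7 and 19.3 CPM at P1 and 855, 822, 895 and 715 CPM at P60 (5.52 ± 0.24, adjusted p = 1.1e-16). Fkbp5, a chaperone partner of the steroid receptors, rose from 27.6 ± 1.45 to 87.1 ± 14.5 CPM, Sgk1 from 108 ± 33.5 to 339.9 ± 60.9, and Zbtb16 from 0.146 ± 0.0442 to 16.1 ± 4.36. The metallothionein genes Mt1 and Mt2 rose from 47.9 ± 21.5 to 266 ± 52.2 and from 21.2 ± 9.75 to 421 ± 111 CPM. The receptor gene itself, Nr3c1, rose from 79.8 ± 8.78 to 169 ± 5.8 (1.08 ± 0.20), near the 2-fold minimum, and Angptl4 was not called.

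Clock genes were higher in 14 of 20 cases and lower in 3 (median 2.04), beside 20.3% and 15.2% of all genes. The share of falls was thus close to that over all genes. Dbp, an output gene of the clock, was at 4.88, 7.49, 7.4 and 8.06 CPM at P1 and 76.4, 94.1, 79.9 and 84.5 at P60 (3.59 ± 0.20, adjusted p = 9.6e-15), and Nr1d1, a repressor in the feedback loop, at 6.23, 14.1, 13.8 and 11.8 and 148, 151, 144 and 146 CPM (3.68 ± 0.22, adjusted p = 3.8e-14). Nr1d1 overlaps Thra on the other strand. Per1, Per2 and Per3 rose from 30.1, 4.04 and 33.9 CPM to 182, 34.6 and 112. The activating arm had no rise, with Arntl at 21.7 ± 2.05 and 15.4 ± 4.4 CPM and Clock at 83.6 ± 9.58 and 114 ± 6.67, neither called, and Npas2 falling from 2.56 ± 0.172 to 0.966 ± 0.45. The E-box CACGTG was in 4 of 11 promoters of the genes that rose (36.4%, against 9.61% of all tested), and CCAAT, described above for genes of the cell cycle that fell, was in 9 of the 11 (81.8%, against 38.3%). The hour of collection is not given in the sources used here, so stage and time of day cannot be told apart for clock and glucocorticoid genes.

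Immediate early genes, which handling of tissue can also raise, were higher in 10 of 19 cases and lower in 1, beside 20.3% and 15.2% of all genes. Fos (6.76 and 7.52 CPM), Egr1 (15.2 and 9.01) and Nr4a1 (207 and 172) were not called. Klf2 rose from 2.13 ± 0.316 to 21.8 ± 2.31 CPM and Nr4a2 from 49.1 ± 2.00 to 121 ± 1.01. Egr3 was at 45.8, 46.7, 60.3 and 43.7 CPM at P1 and 1.68, 1.23, 1.12 and 1.07 at P60 (-5.27 ± 0.26, adjusted p = 9.7e-16). The list had 2 falls without P60 replicate 1, where Egr1 was called as well, and 2 with limma-voom.

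**Figure D4:**
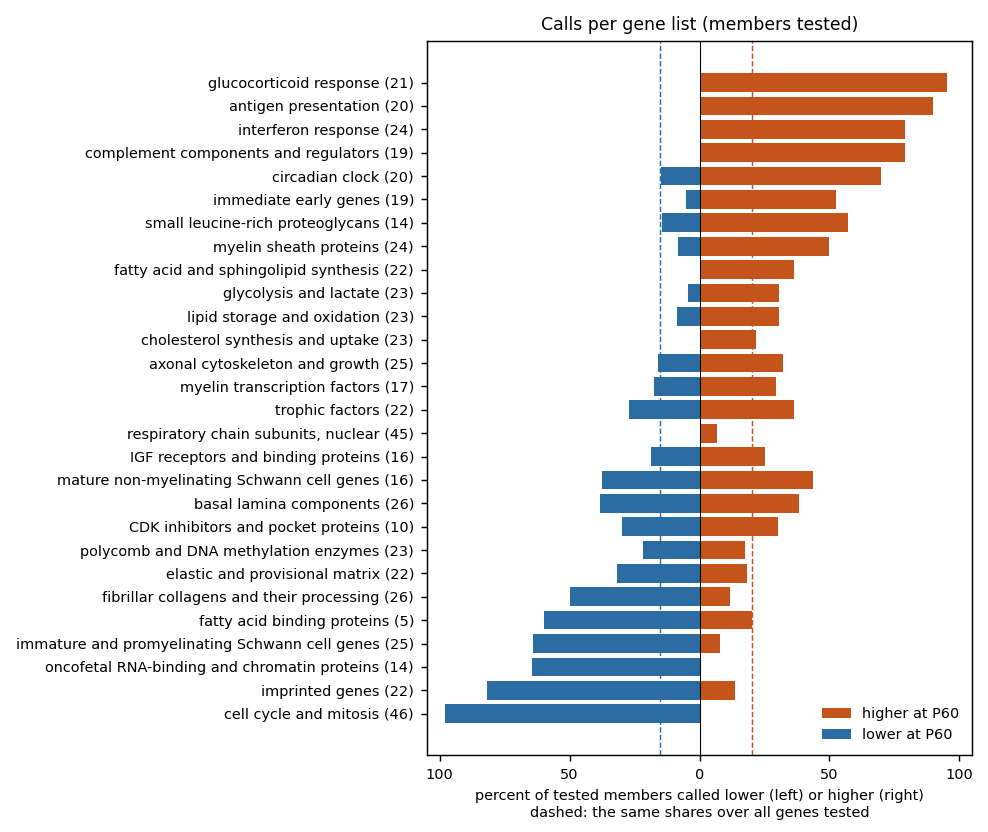
Percent of the tested members of each gene list called higher at P60 (orange, to the right) and lower (blue, to the left), with the number tested in brackets; dashed lines give the shares over all genes tested (20.3% higher, 15.2% lower). Glucocorticoid (20 of 21 higher) and antigen presentation lists stand at the top and the cell cycle list (45 of 46 lower) at the bottom.

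Trophic factors were called higher in 8 of 22 cases and lower in 6, beside 20.3% and 15.2% of all genes. Cntf (chr19:12763660-12765632), a survival factor of motor neurons made by Schwann cells, was at 8.67, 9.78, 5.43 and 8.28 CPM at P1 and 1852, 1820, 2031 and 1717 CPM at P60 (7.85 ± 0.17, adjusted p = 4.3e-22), and its locus overlaps Zfp91 on the same strand. Fgf1 rose from 119 ± 3.41 to 583 ± 43.3 CPM and Fgf7 from 12.6 ± 1.13 to 91.3 ± 5.78. Igf1 was at 214, 148, 157 and 142 CPM at P1 and 23.9, 18.6, 17.5 and 24.5 at P60 (-2.97 ± 0.32, adjusted p = 5.7e-09). Pdgfc fell from 63.2 ± 3.98 to 8.86 ± 0.665 CPM. Bdnf (0.131 and 0.245 CPM) and Gdnf (0.451 and 0.283) were near 0 at both stages and were not called.

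Genes of glycolysis and lactate handling rose in 7 of 23 cases and fell in 1 (3 with library size alone), beside 20.3% and 15.2% of all genes. Slc2a1, the glucose transporter of perineurium and capillaries, was at 16.2, 23.6, 28.2 and 23.9 CPM at P1 and 252, 230.4, 263 and 277 at P60 (3.47 ± 0.24, adjusted p = 1.5e-12), and Aldoa went from 291 ± 64.4 to 729 ± 67.3 CPM and Aldoc from 2.64 ± 0.64 to 25.2 ± 4.82. Slc16a3, a lactate exporter, fell from 3.52 ± 1.2 to 0.826 ± 0.374 CPM, and its partner Slc16a1, which supplies axons, was at 74.3 ± 9.1 and 125 ± 27.9 and not called. Of 45 nuclear genes of the respiratory chain, 3 rose and none fell (median -0.16). Atp5b was at 897 ± 8.06 and 597 ± 20.5 CPM and Atp5a1 at 617 ± 54.7 and 396 ± 11.8, neither called. The 3 that rose were Cox7a1 and Cox8b, isoforms of muscle and brown fat at 3.25 ± 0.521 and 0.814 ± 0.852 CPM at P60, and Ndufa5 (26.2 ± 2.52 to 54.3 ± 4.15). Cox8b was not called without P60 replicates 3 and 4.

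Transcripts of the axonal cytoskeleton, of which the nerve holds those carried or present in axons and those of Schwann cells, were higher in 8 of 25 cases and lower in 4 (20.3% and 15.2% over all genes, the latter close to the share of the list). Stmn1 rose from 138 ± 9.87 to 358 ± 25.99 CPM and Uchl1 from 14.6 ± 4.42 to 72.5 ± 11.7, while Tubb2b fell from 322 ± 72.1 to 54.01 ± 9.75 and Ina from 2.75 ± 0.781 to 0.255 ± 0.0495. The neurofilament genes Nefh (32.4 and 27.2 CPM), Nefm (10.6 and 10.9) and Nefl (22.5 and 13.7) and Tuba1a (1224 and 1171) were not called.

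The stages between the endpoints place these changes in time. On the scale of log2(mean CPM + 0.5), the median called gene had gone 22.6% of the way from its P1 to its P60 level at P5, 63.5% at P14 and 79.3% at P24. Genes that rose (62.8% at P14) and genes that fell (64.2%) moved at a similar pace. At P14, 2009 called genes (31.9%) were less than 50% of the way, and at P24 882 genes (14.02%). The P1 and P60 values enter both the choice of genes and the share, so these are descriptions and no test was run.

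Gene groups differed in their course. The cell cycle list fell from P1 on, and its median log2 ratio to P1 reached -0.77 by P5, -2.56 by P14, -3.34 by P24 and -4.25 by P60. Mki67 went through 276, 61.6 and 24.2 CPM on the way. Complement stood at 1.59 at P14, 2.35 at P24 and 2.49 at P60, and antigen presentation at 1.04, 1.93 and 2.42. Imprinted genes were at 0.18 at P5 and -0.69 at P14 before -2.13 at P60, and Igf2 itself had stage means of 928 and 1667 CPM at P5 and P14 against 782 at P1. C3 went through 4.14 CPM at P14 and 57.8 at P24 on its way to 582, and Spp1 through 87.2 and 329 to 1672.

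Some genes stood higher between the endpoints than at either of them. A stage mean at P5, P14 or P24 at least 2-fold above both P1 and P60 was found for 147 of 17700 genes (0.83%) and for 10 of 23 cholesterol genes (43.5%). The median of the cholesterol list stood 1.07 above P1 on the log2 scale at P5, 1.47 at P14 and 1.47 at P24 and at 0.34 at P60. Hmgcs1 went from 933 CPM at P1 through 4307 at P14 to 1664 at P60. Sheath genes also passed above their adult level, Pmp22 with 54661 CPM at P24 against 35994 at P60 and Mbp with 51436 at P14 against 28304. Stage means of Drp2 and Cntf went up at every step after P1, those of Drp2 through 802, 3321 and 4351 CPM to 7573, and those of Cntf through 72.5, 344 and 519 to 1855. The course of Fkbp5 was uneven, with 16.6, 29.7 and 16.99 CPM at P5, P14 and P24.

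**Figure D5:**
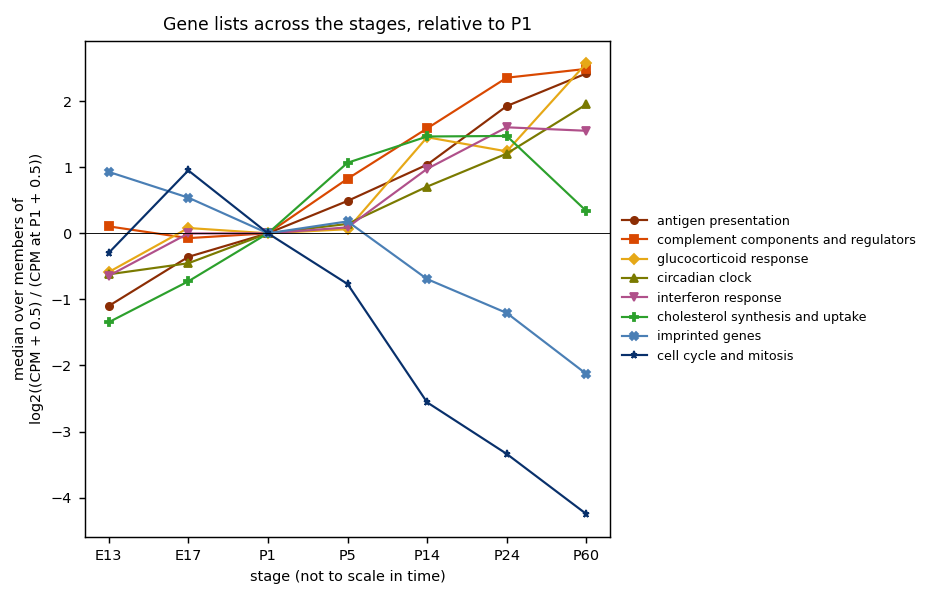
Median over the members of 8 gene lists of log2((CPM + 0.5) / (CPM at P1 + 0.5)) at each of the 7 stages, from stage means of 4 libraries; stages are evenly spaced and not to scale in time. The cell cycle list drops to -4.25 at P60, the complement, antigen presentation and clock lists go up at each step from P1 to P60, the interferon list is about level from P24 (1.60) to P60 (1.55), and the cholesterol list is high from P5 to P24 (1.07 to 1.47) and back at 0.34 at P60.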

How the data were processed

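The authors stripped epineurium and perineurium from the nerves, made poly(A)-selected stranded libraries, sequenced single-end reads, mapped them to the mouse genome and counted reads per Ensembl gene. The submitters' processing notes name STAR 2.6.1c, featureCounts and GRCm38.p5. Whether counting used strand or kept multimapping reads is not given in the sources used here. The deposited table holds raw counts of 41605 genes in 28 libraries, and 41519 identifiers (99.79%) were matched to GENCODE names. Some genes are not reported here and are left out of the genes named, although the counts of calls and the lists include them. Groups follow the sample labels. A library is one mouse after birth, and library depth, 14499650 to 30953982 counts here, limits precision for low genes, with intervals on single ratios covering counting error only.

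Counts of all 28 libraries were fitted with edgeR 4.0.16 (R 4.3.3) by a quasi-likelihood model with stage as the only term, after filterByExpr (17700 genes) and TMM scaling. P-values were adjusted by Benjamini-Hochberg over all genes tested, and a gene was called at an adjusted p under 0.05 and a fold change of at least 2. On simulated counts for these 17700 genes, 100 of 100 genes changed 4-fold and 100 of 100 changed 16-fold were recovered, with 4 false calls. The simulation gave all genes the same spread and changed 200 genes that were not low, as many up as down. It set no stage effect elsewhere, whereas 35.5% of genes were called in the data. It is thus an easier setting and gives no error rate for these calls or for low genes. Shares of counts were compared by exact two-sided permutation. Promoters are RefSeq sequences.

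Members and gene lists were chosen with earlier results of these data known. Genes named by rule were the 12 largest rises and falls (at least 10 CPM in the higher stage, over 3 counts in a library of the lower, no overlap between libraries), the 6 most abundant genes nearly absent from the other stage, the 10 highest per kilobase, and in each list the largest rise, the largest fall and the 2 most abundant members. Other genes were named for known roles after their values were seen. Alternatives were DESeq2 1.42.0, limma-voom 3.58.1, other scalings, filters, samples, GC corrections, thresholds and a replicate block. Names without a match in the table were 2.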

Additional observations from a re-analysis of the deposited data

Results flagged for a closer look

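In 20 of 329 groups of 4 libraries, 1 library lay far from the others of its stage by Dixon's test on the CPM of a named gene. Chance alone gives about 1 in 20 such groups. The value given for each gene is the gap to the nearest library divided by the range of the group. P1 replicate 1 was the distant library for Mki67 (gap 0.936, 683 CPM against 462 to 476), Top2a (0.963, 482 against 359 to 364), Itgb4 (0.856, 67.0 against 123 to 133), Cbx7 (0.905, 2.77 against 5.17 to 5.43) and Atp5a1 (0.878, 535 against 639 to 653). It is also the library with the steepest GC trend of the 8, and the part of that trend in these values was not tested. P1 replicate 3 was distant for Fmod (0.915, 2.44 CPM against 0.546 to 0.708), Lyve1 (0.881, 4.67 against 0.403 to 0.911) and Ppl (1, 0.146 against 0), and P1 replicate 2 for Gfap (0.918, 0.0416 CPM, the lowest).

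At P60, replicate 1 was distant for Cdkn1a (0.932, 476 CPM against 541 to 546), Igfbp5 (0.84, 805 against 492 to 542), Mfsd2a (0.936, 145 against 168 to 170), Lyve1 (0.845, 19.3 against 13.3 to 14.2) and Dtl (0.836, under 1 CPM in every library). Replicate 2 was distant for S100b (0.843, 1064 CPM against 932 to 952) and Ngfr (0.839, 47.1 against 30.9 to 33.5). Replicate 3 was distant for Mki67 (0.866, 1.06 CPM against 2.10 to 2.26) and Calca (0.85, 5.66 against 2.70 to 3.14), and replicate 4 for Cd4 (0.895, 0.565 CPM against 0.0725 to 0.124) and Matn4 (0.877, 21.2 against 18.6 to 18.9).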

How the results depend on the processing

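Calls kept their number within 1.5 times under all settings tried (5008 to 6880 genes, from at least 1 CPM in 4 of 8 libraries to no filter on low counts) apart from the threshold itself. With no fold change minimum, 10820 genes passed (5466 higher and 5354 lower), and a test against a fold change of 2 (glmTreat) left 4253, of which 1708 were lower. Leaving out 1 library at a time gave 6078 to 6261 calls, 3490 to 3640 higher and 2547 to 2679 lower, and a difference in the share of the 10 most abundant genes of 6.349 to 7.189 percentage points, where 3 against 4 libraries allow no p below 0.0571. Leaving out P60 replicates 3 and 4 together, chosen after their adipocyte markers had been seen, gave 5785 calls, and the 8 libraries alone 5579. A DESeq2 Wald test called 6316 genes and limma-voom 6386. The share of the change reached at P14 was 62.4% on linear CPM and 61.2% over changes of at least 4-fold.

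Of 440 called genes named or listed, 355 lost the call in no setting that tested them and none changed direction. Low counts kept some of these genes out of 1 or more settings. The reversals were in genes that were not called. Scaling by library size alone gave Cd34 -0.0095 and Gnas -0.19, and no filter gave Gnas -0.066. Gnas was at -0.19 with the GC trend removed against all libraries, at -0.063 with limma-voom, and at -0.0498 to 0.0937 with 1 library left out. With 1 library left out Krt1 ranged from -0.97 to 1.13 and Tuba1a from -0.15 to 0.0034. Krt1 was at 0.64 without P60 replicates 3 and 4 and at 0.79 with limma-voom. The causes were not tested. A replicate block (6276 calls) stands here only, since deviations of P1 and P60 libraries with the same replicate number correlated by 0.0705 to 0.238 and replicate 3 was not closest to its own number, so the numbers were not taken as pairs. The numbers also divide the libraries of both stages by Xist, as given above, and sex was not a term of its own in any setting. Erythroid markers had 2 calls rather than 4 without P60 replicates 3 and 4.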

Other observations

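Some receptors and channels outside the gene lists changed by large factors. The families below were chosen after the results had been seen, and their counts are descriptions, to be read beside the 20.3% of all genes called higher and 15.2% called lower. Of 15 subunits of ionotropic glutamate receptors tested, 8 fell and 1 rose (median log2 fold change -1.53, against -0.02 over all genes). Beside Gria2, described above, the AMPA receptor gene Gria4 fell from 41.4 ± 2.8 to 10.6 ± 2.31 CPM and the kainate receptor gene Grik2 from 103 ± 15.6 to 35.2 ± 4.54, while Grik3 rose from 12.2 ± 0.711 to 28.4 ± 4.4. GABA-A receptor subunits were near those shares, with 3 of 14 higher and 3 lower. Gabrb2 was at 21.2, 18.2, 17.2 and 14.4 CPM at P1 and 0.219, 0, 0 and 0 at P60, and Gabra3 went from 2.47 ± 0.554 to 21.5 ± 8.62. Potassium channel subunits rose in 20 and fell in 21 of 74 cases. Kcnj10, the glial inward rectifier Kir4.1, was at 782, 662, 645 and 655 CPM at P1 and 5.55, 4.86, 5.41 and 5.52 CPM at P60 (-7.00 ± 0.18 on the log2 scale, adjusted p = 6.1e-21), and Kcnk1, a leak channel, at 12.3, 18.98, 12.1 and 18.1 and 197, 248, 253 and 224 CPM (3.91 ± 0.19, adjusted p = 8.9e-16). For these 2 channels no P60 library overlapped a P1 library.

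Claudins, the strands of tight junctions, rose in 7 of 11 cases and fell in none (median 2.13), beside a rise of perineurial and endothelial markers whose part in the result was not tested. Semaphorins, guidance cues for axons, rose in 8 of 20 cases and fell in 5. Sema5a went from 78.8 ± 13.7 to 819 ± 40.1 CPM and Sema3b from 485 ± 118 to 1940 ± 273, while Sema6d went from 945 ± 65.4 to 307 ± 3.83. Serpins rose in 10 of 18 cases and fell in 3, and cytochrome P450 genes in 13 and 2 of 31. Of the latter, Cyp2e1 was at 24.3, 34.7, 90.4 and 119 CPM and Cyp2f2 at 3.29, 1.60, 12.7 and 12.7 CPM in P60 replicates 1 to 4, higher in replicates 3 and 4 as the adipocyte markers were, and the part of fat in the family's count was not tested. Of the remaining families, 5 of 12 sodium channel genes rose and 2 fell, and 6 and 2 of 12 keratins. Hox genes (6 and 4 of 35), ABC transporters (10 and 3 of 40) and FGF ligands (4 and 2 of 14) had shares of rises near that over all genes. Of 79 genes of cytosolic ribosomal proteins, 4 fell and none rose, with a median of -0.53.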
